A study of Mus musculus with 8 samples.

Results

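Hmgcs1, Insig1, Sqle, Idi1, Srebf2, Fdft1 and Ebp, 7 genes of cholesterol synthesis and its control, were examined in B3 cells, and the question was whether open chromatin around them moved during treatment with 4-hydroxytamoxifen (4-OHT). Their members were every peak whose summit lay inside one of these genes or within 20 kb of it (mouse GRCm38, GENCODE vM21). In the 8 peak lists this took 457 of 767727 peaks. Peaks of different lists that overlapped by at least 1 bp were merged, which left 93 of 174718 regions around the 7 genes. The largest number lay around Srebf2 (28 regions), followed by Fdft1 (16), Hmgcs1 and Insig1 (15 each), Ebp (7), and Idi1 and Sqle (6 each). The data are ATAC-seq, in which the transposase Tn5 cuts and tags open DNA, of the mouse pre-B cell line B3 carrying Ikaros-ERt2. This fusion of the transcription factor Ikaros to a tamoxifen-responsive receptor domain was brought in by a retrovirus, and transduced cells were sorted for a fluorescent marker. Cells had no treatment (0 h) or 500 nM 4-OHT, for 30 min, for 1 h or for 2 h; each of the 4 time points has 2 libraries. All 8 libraries carried Ikaros-ERt2 and the 0 h cells were untreated, so an effect of 4-OHT, its solvent or the nuclear Ikaros cannot be told apart in these samples. B3 derives from a lymphoma and is a single cell line, and no source used here says that the 2 libraries of a time point came from separate cultures, so p-values measure only the spread between these libraries.

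Cells make cholesterol from acetyl-CoA through mevalonate. The transcription factor SREBP2, the product of Srebf2, turns these enzymes on when sterols are scarce. INSIG1 holds the SREBP precursor in the endoplasmic reticulum when sterols are plentiful, and its own gene is an SREBP target. Tamoxifen and its metabolites bind enzymes and binding proteins of the late sterol pathway, among them the sterol isomerase EBP, which is why these genes serve as a place to look for an action of the drug that is separate from Ikaros.

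The sequences shown here are the 2 regions that passed the test, one more that lay near the threshold, and the promoter whose peak had the most fragments. In the 3 regions (GRCm38, plus strand) capitals mark GGAA and GGGA on either strand, words of the Ikaros binding core. The promoter of Hmgcs1 is given as the 250 bases before its RefSeq start (GRCm38.p6), with the sterol regulatory element core TCACNCCAC and CCAAT boxes in capitals on either strand.
Insig1 upstream region, chr5:28069679-28069922: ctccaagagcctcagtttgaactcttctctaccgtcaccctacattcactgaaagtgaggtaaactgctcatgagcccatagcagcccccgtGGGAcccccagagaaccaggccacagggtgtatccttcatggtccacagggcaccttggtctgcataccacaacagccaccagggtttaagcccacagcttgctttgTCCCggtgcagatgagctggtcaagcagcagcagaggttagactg
Idi1 window, region in Wdr37, chr13:8870167-8870375: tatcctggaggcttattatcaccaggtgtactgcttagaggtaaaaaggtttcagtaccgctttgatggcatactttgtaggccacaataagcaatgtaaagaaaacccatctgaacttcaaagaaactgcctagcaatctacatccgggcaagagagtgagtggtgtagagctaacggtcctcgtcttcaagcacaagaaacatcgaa
Insig1 intronic region, 200 bases around the summit, chr5:28071892-28072091: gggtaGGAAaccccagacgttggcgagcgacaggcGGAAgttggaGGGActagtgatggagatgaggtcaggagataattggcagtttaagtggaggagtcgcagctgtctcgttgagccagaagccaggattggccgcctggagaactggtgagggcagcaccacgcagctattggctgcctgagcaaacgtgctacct
Hmgcs1 promoter, chr13:119690101-119690350: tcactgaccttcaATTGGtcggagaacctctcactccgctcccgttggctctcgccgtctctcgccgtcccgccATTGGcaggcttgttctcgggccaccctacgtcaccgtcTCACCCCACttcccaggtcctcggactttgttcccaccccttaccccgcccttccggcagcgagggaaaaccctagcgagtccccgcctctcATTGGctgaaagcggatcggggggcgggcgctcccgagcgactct
The region upstream of Insig1 held 2 copies of GGGA and no GGAA, and the region in Wdr37 held neither word. The region in the Insig1 intron held 2 GGAA, 1 GGGA and 3 CCAAT boxes. Over the 200 bases around the summit, GGGAA was found in 7 of the 33 member regions with a peak in all lists (21.2%), against 43.5% of all 47875 such regions. Over all 93 member regions it was found in 30 (32.3%), with no share of all regions to set beside it. A match to TCACNCCAC was found near 1 of these 33 member summits (3.03%), that of the Hmgcs1 promoter, and in 0.836% of the 47875 regions. Over all 93 member regions, most of them not in every list, there were 3 (3.23%), 2 of them at Hmgcs1. Among the 5 member genes with an entry in the RefSeq promoter table (300 bases each), only that of Hmgcs1 held TCACNCCAC, at position -137 from its start, and 1.24% of 32851 promoters of all genes held it. CCAAT was found in the promoters of all 5 (4 matches in Hmgcs1, 2 each in Idi1 and Ebp, 1 each in Insig1 and Srebf2) and in 37.4% of all promoters. GGGAA had 3 matches in the promoter of Hmgcs1, 1 each in Idi1, Srebf2 and Ebp and 0 in Insig1, and was in 62.7% of all promoters.

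Each region was described in 2 ways. Its presence is whether a list had a peak in it. Its percentile is the rank of its highest peak, by fold over the local background, among all peaks of the same list, so that 100 is the strongest peak. Fragments are the number of nucleosome-free fragments (under 120 bp) that covered the summit. The fold has 1 added to both the fragments and the local background. The later alternatives by fragments over background add nothing to either. In bulk cells, a region that is open in fewer cells and one that is less open in each cell cannot be told apart. The lists held 85903 to 103897 peaks, and the background of the libraries, a measure of depth, was 0.26 to 0.405 fragments per base. A median peak was covered by 11 to 14 fragments. Of the pre-B genes reported here, 6 had a promoter peak in all lists, Rag1 in 7 and Vpreb1 in 4. Those of the 9 myeloid, erythroid and non-blood genes were in no list except Klf1 in 1, and of 3 T-cell genes Cd3g was in 7 lists and the others in none.

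Presence came first. Around the 7 genes the lists held 50 and 42 peaks at 0 h, 59 and 52 (30 min), 63 and 59 (1 h), and 65 and 67 (2 h). Per 10000 peaks of the same list this was 5.32 and 4.89 (0 h), 5.91 and 5.93 (30 min), 6.07 and 6.31 (1 h), and 6.26 and 6.76 (2 h). Every treated list therefore held more member peaks than both untreated lists, in number and per list length. Of the 93 regions, 33 (35.5%) had a peak in all 8 lists, as had 27.4% of all regions, and 19 were in a single list. The regions in all lists numbered 11 around Insig1, 8 around Srebf2, 3 each around Hmgcs1, Idi1, Fdft1 and Ebp, and 2 around Sqle.

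Loss at a later time means a peak in both untreated lists but in neither of that time, and gain is the reverse. Of 39 member regions in both 0 h lists, 2 were lost at 30 min, 1 at 1 h and 3 at 2 h (7.69%), against 10.9%, 14.6% and 16.6% of all such regions. Of 43 member regions in neither 0 h list, 7 were gained at 30 min (16.3%), 10 at 1 h (23.3%) and 14 at 2 h (32.6%), against 11.1%, 19.2% and 23.9% of all such regions. These shares carry no test. Without the first or the second 0 h list 5 or 7 regions were lost at 2 h, and without the first or the second 2 h list 25 or 23 were gained, since fewer lists then decide. The counts also moved with list length: shortened to 85903 peaks each, the lists gave 7, 6 and 7 gains and 2, 5 and 2 losses at the 3 times. With −log10 q of at least 5 the gains were 6, 7 and 8. The shares of all regions under these 2 settings are not given here. Whether the members differ from all regions under them therefore cannot be told. The 3 regions lost at 2 h lay in an intron of Srebf2, past the 3′ end of Srebf2 near Shisa8, and 997 bp upstream of a start of Fdft1, the squalene synthase gene. The Fdft1 upstream region had 36 and 13 fragments at 0 h (percentiles 64.0 and 27.8) and no peak in any of the 6 treated lists. The Srebf2 intronic region had percentiles of 49.5 and 59.5 (0 h), 45.8 and 4.88 (30 min), and 7.09 in 1 of the 1 h lists, with no peak in the other or at 2 h. It left the lists in steps, whereas the Fdft1 region was already absent at 30 min. The 14 regions gained at 2 h were spread over 6 genes, with 4 each at Hmgcs1 and Srebf2, 2 each at Fdft1 and Ebp and 1 each at Sqle and Idi1. None was at Insig1. They had 5 to 17 fragments at the summit in the 2 h lists. Their percentiles there ran from 0.81 (an intron of Ebp) to 66.8 (the Hmgcs1 window). Of the 14, 4 had a peak in all 6 treated lists (at Hmgcs1, Idi1, Srebf2 and Ebp), and that of Ebp lay in an intron 859 bp past the start. It had 11 and 10 fragments at 30 min, 12 and 19 (1 h), and 10 and 11 (2 h).

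**Figure D1:**
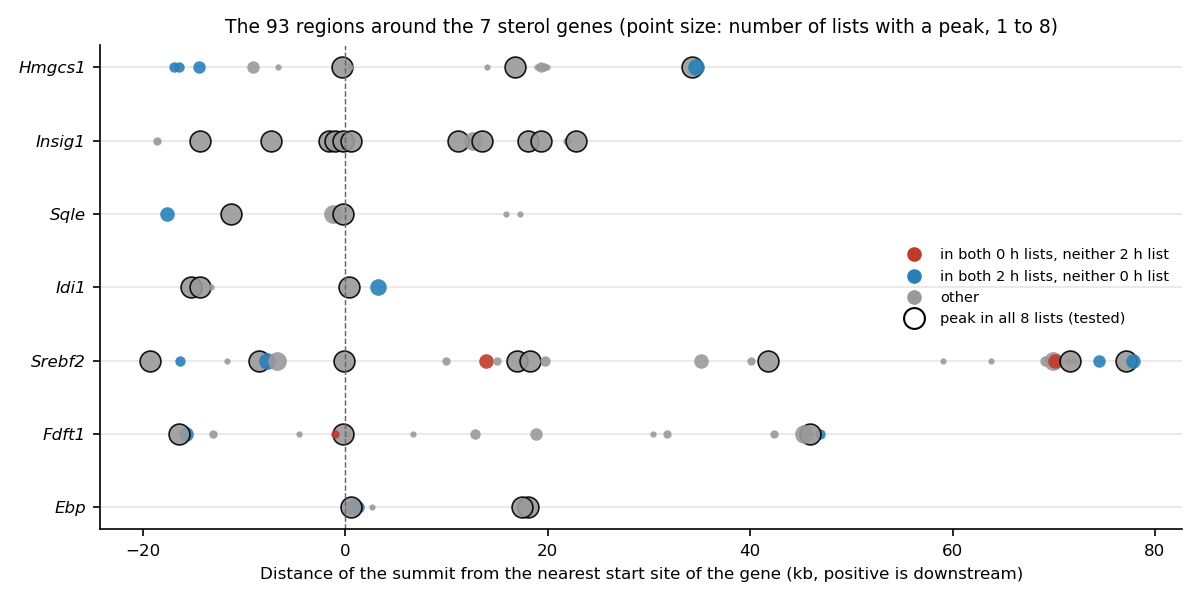
The 93 regions around the 7 genes, each point a region at the distance of its summit from the nearest start site of the gene (kb, horizontal axis), with a row per gene. Point size is the number of lists with a peak, outlined points were in all 8 lists, and colour marks the 3 regions lost and the 14 gained at 2 h; the gained points are small and lie mostly away from the start sites.

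Near the start sites, each of the 7 genes had a region in all 8 lists. For each gene the region was taken whose summit lay within 1 kb of a start and which ranked highest at 0 h. Hmgcs1 encodes the synthase that makes HMG-CoA, an early step of the pathway. Its promoter peak (chr13:119689957-119690538, summit 298 bp upstream) had percentiles of 98.4 and 97.9 (0 h), 98.0 and 99.1 (30 min), 98.9 and 98.6 (1 h), and 97.9 and 97.9 (2 h). It kept its place near the top of every list, with 191 and 124 fragments at 0 h and 160 and 143 (2 h). The peak of Sqle, the squalene epoxidase gene (chr15:59314620-59315175), had 97.1 and 99.2 (0 h), 98.7 and 98.0 (30 min), 99.0 and 98.9 (1 h), and 98.3 and 99.0 (2 h). All 6 treated libraries lay between the 2 untreated ones. On the normal-score scale, in which percentiles are turned into standard normal values, the change from 0 h to 2 h was -0.06 (SE 0.20) at Hmgcs1 and 0.07 (SE 0.23) at Sqle. The sign of the Sqle change turned with fragments in place of ranks.

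Idi1 encodes the isomerase that makes dimethylallyl diphosphate, and Fdft1 joins farnesyl units into squalene. The Idi1 peak (chr13:8885439-8886079, its summit in a coding exon) had percentiles of 95.4 and 95.5 (0 h), 91.5 and 90.9 (30 min), 93.0 and 89.1 (1 h), and 93.2 and 91.7 (2 h). All 6 treated libraries ranked it below both untreated ones, by a mean of 2.95 points at 2 h, and the change did not pass the test (adjusted p = 0.39, limma). The Fdft1 peak (chr14:63177802-63178248, in a non-coding exon) had 92.0 and 91.4 (0 h), 89.2 and 87.9 (30 min), 89.5 and 85.0 (1 h), and 85.7 and 93.8 (2 h). Its 2 h libraries lay on either side of the 0 h values, and the direction of its 2 h change turned with fragments over background or without the first 2 h library. The peak of Srebf2 (chr15:82146768-82147381, 98 bp upstream of the start) was weaker, with 84.7 and 85.7 (0 h), 80.9 and 82.2 (30 min), 77.9 and 86.3 (1 h), and 83.0 and 81.0 (2 h). Its 2 h libraries lay just under those of 0 h, with an adjusted p of 0.68.

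Ebp and Insig1 had the start-site regions that moved furthest. EBP is the sterol isomerase that tamoxifen-like drugs bind. The Ebp region (chrX:8192800-8193059, in a non-coding exon 577 bp past the start) had percentiles of 98.9 and 97.7 (0 h), 93.6 and 96.8 (30 min), 90.7 and 88.9 (1 h), and 88.4 and 84.1 (2 h). The groups were ordered by time, and no treated library reached a 0 h value. Fragments at its summit were 68 and 50 (0 h), 42 and 43 (30 min), 33 and 33 (1 h), and 32 and 25 (2 h). The score was lower by 1.04 at 2 h (a change of -1.04, SE 0.22), which missed the threshold of 0.01 (adjusted p = 0.0141 at 2 h and 0.0349 at 1 h, limma). Over the alternatives the adjusted p ran from 0.00209 (fragments over the library background) and 0.00271 (mean trend and robust prior) to 0.184 (fragments over the local background), and from 0.0203 to 0.0784 with 1 library left out. The local background at this region was 1.32 and 1.01 fragments without treatment, and 0.811 and 0.689 after 2 h. The Insig1 region that the rule chose lay in an intron, 629 bp past the start (chr5:28071863-28072163). It had percentiles of 80.9 and 91.0 (0 h), 63.7 and 66.0 (30 min), 69.3 and 62.7 (1 h), and 54.9 and 51.2 (2 h), with 75 and 75 fragments at 0 h and 42 and 34 (2 h). All treated libraries lay under both untreated ones, and the change of -1.03 (SE 0.22) had an adjusted p of 0.0153, again short of the threshold. Over the alternatives its adjusted p ran from 0.00324 (fragments over the library background) to 0.0453 (regions in at least 2 lists), and it was 0.0803 without the second 0 h library and 0.0600 and 0.0766 without the first and second 2 h library. The peak that spans the Insig1 start itself was of middle rank and had no such course, with 55.6 and 54.5 (0 h) and 68.1 and 59.5 (2 h) (adjusted p = 0.54).

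**Figure D2:**
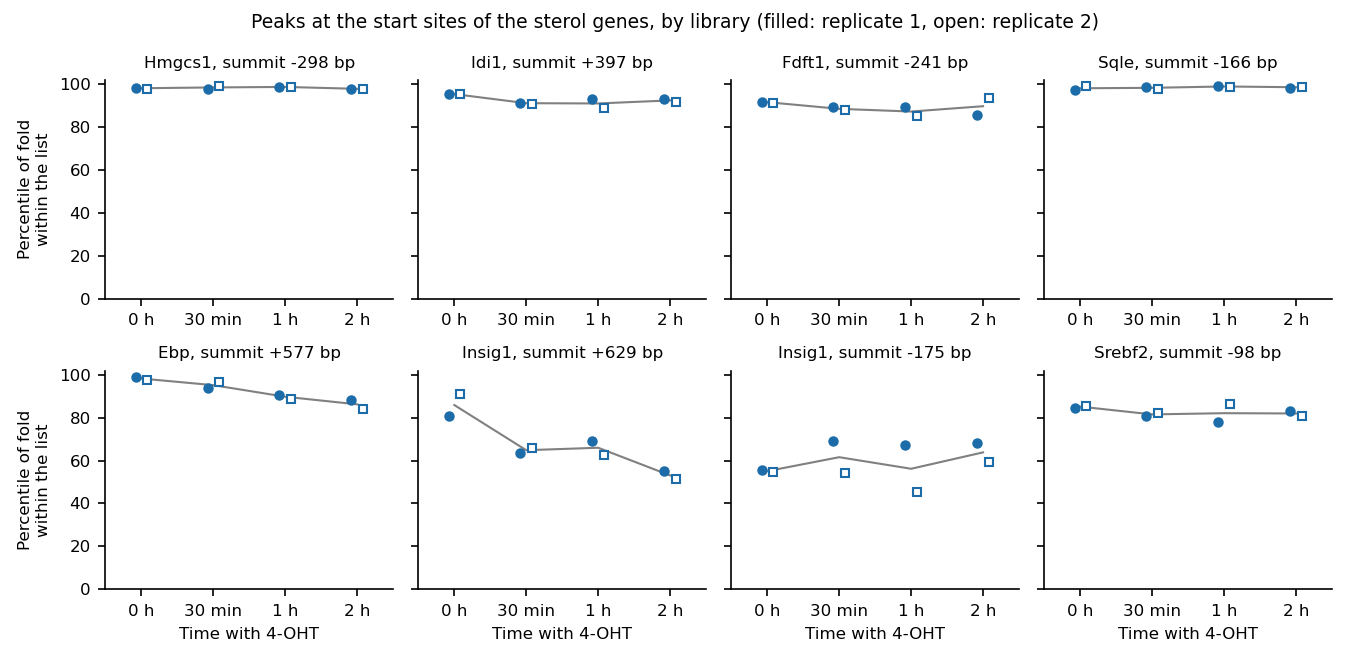
Percentile of fold within the list (vertical axis, 0 to 100) for the start-site regions by time with 4-OHT, each library a point (filled circle replicate 1, open square replicate 2) and the line the mean of 2. Hmgcs1 and Sqle stay above 97 in every library, while the Ebp region and the Insig1 intronic region are lower in all treated libraries than at 0 h.

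Over the 7 start-site regions the median of the mean percentile was 95.4 at 0 h, 91.2 at 30 min and 89.8 at 1 h and 2 h. The regions were chosen for their rank at 0 h, which mattered only where several candidates had a 0 h peak. At Hmgcs1, Sqle, Idi1, Srebf2 and Ebp no other region within 1 kb of a start had one. At Fdft1 the other candidate had percentiles of 64.0 and 27.8 at 0 h. At Insig1 the rule took the intronic region over the peak at the start, whose mean was higher at 2 h. Of the 7 regions, 6 were lower at 2 h, against 6419 of all 13878 tested promoter regions. This count carries no test and is not read as a result. None of the 7 passed the test at 2 h, where 1.7% of all 13878 tested promoter regions were called lower and 0.937% higher.

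The test covered the 47875 regions that all lists contained, so that only the 33 member regions in every list entered, and regions that opened or closed fully did not. Scores were fitted with limma for all 4 time points, and a region was called at a Benjamini-Hochberg adjusted p under 0.01 over the 47875. At 30 min limma called 0 of 33 member regions, as it called none of all regions (0.0% in each direction); 6 of 33 had an unadjusted p under 0.05, against 20.3% of all. At 1 h it called 2 of 33 higher and 0 lower, where 0.986% of all regions were called higher and 1.02% lower. At 2 h it called the same 2 regions higher and 0 lower, where 2.5% of all were called higher and 2.73% lower. Across the 4 time points the F test called 1 of 33, against 0.543% of all. At an unadjusted p under 0.05 there were 9 of 33 at 1 h and 11 of 33 at 2 h, against 31.9% and 36.5% of all regions. Of the 33 regions, both 2 h libraries lay under both 0 h libraries in 12 and above them in 11, whereas 24.3% of all tested regions were lower and 40.6% higher in this sense. At an adjusted p under 0.05, 3 of 33 were lower and 3 higher at 2 h, against 8.52% and 11.8% of all regions. Ranking within the 47875 regions in place of the whole lists gave 2 of 33 lower (the Insig1 intron and a region downstream of Insig1) and 2 higher, against 4.71% and 2.28%; this changed the share of lower calls among all calls from 52.1% to 67.4%.

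The first called region lay 1586 bp upstream of Insig1, in an intron of the non-coding gene Gm26608, which starts beside Insig1. It ranked near the bottom of both untreated lists, with percentiles of 3.67 and 4.86, and had 52.4 and 54.4 (30 min), 38.0 and 35.9 (1 h), and 60.1 and 61.6 (2 h). Fragments at the summit were 19 and 14 (0 h), 43 and 36 (30 min), 32 and 28 (1 h), and 48 and 42 (2 h). No treated library overlapped the untreated ones, and the 1 h libraries lay between those of 0 h and those of 30 min. The local background was 4.53 and 3.25 fragments at 0 h and 4.32 and 3.65 (2 h), and so differed less between these times than the summit did. The score was higher by 2.00 (SE 0.19) at 2 h, with adjusted p-values of 0.0258 at 30 min, 0.00657 at 1 h and 0.00237 at 2 h (limma), and of 0.00941 in the F test. Leaving out either 2 h library ended the 2 h call (adjusted p = 0.0128 and 0.0149), with the rise at 1.98 to 2.02, and leaving out any 1 of the 8 libraries ended the 1 h call and that of the F test.

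The second lay within 20 kb of Idi1 but in another gene, in an intron of Wdr37, 15190 bp upstream of Idi1 and 30 bp from a start of the non-coding gene Gm48374. Its percentiles were 28.6 and 25.4 (0 h), 69.1 and 64.1 (30 min), 79.2 and 74.0 (1 h), and 76.9 and 77.4 (2 h). It was higher in every treated library, and most of the rise was present at 30 min. Fragments were 16 and 10 (0 h), 26 and 21 (30 min), 33 and 27 (1 h), and 31 and 31 (2 h). The score was higher by 1.36 (SE 0.20) at 2 h, with adjusted p-values of 0.0463, 0.00736 and 0.00406 at the 3 times. Leaving out either 0 h or either 2 h library ended the 2 h call (adjusted p = 0.0149 to 0.0280), and leaving out any 1 library ended the 1 h call. The neighbouring region 155 bp from a start of Wdr37 had 80.0 and 77.3 (0 h) and 77.0 and 66.2 (2 h) (adjusted p = 0.49).

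**Figure D3:**
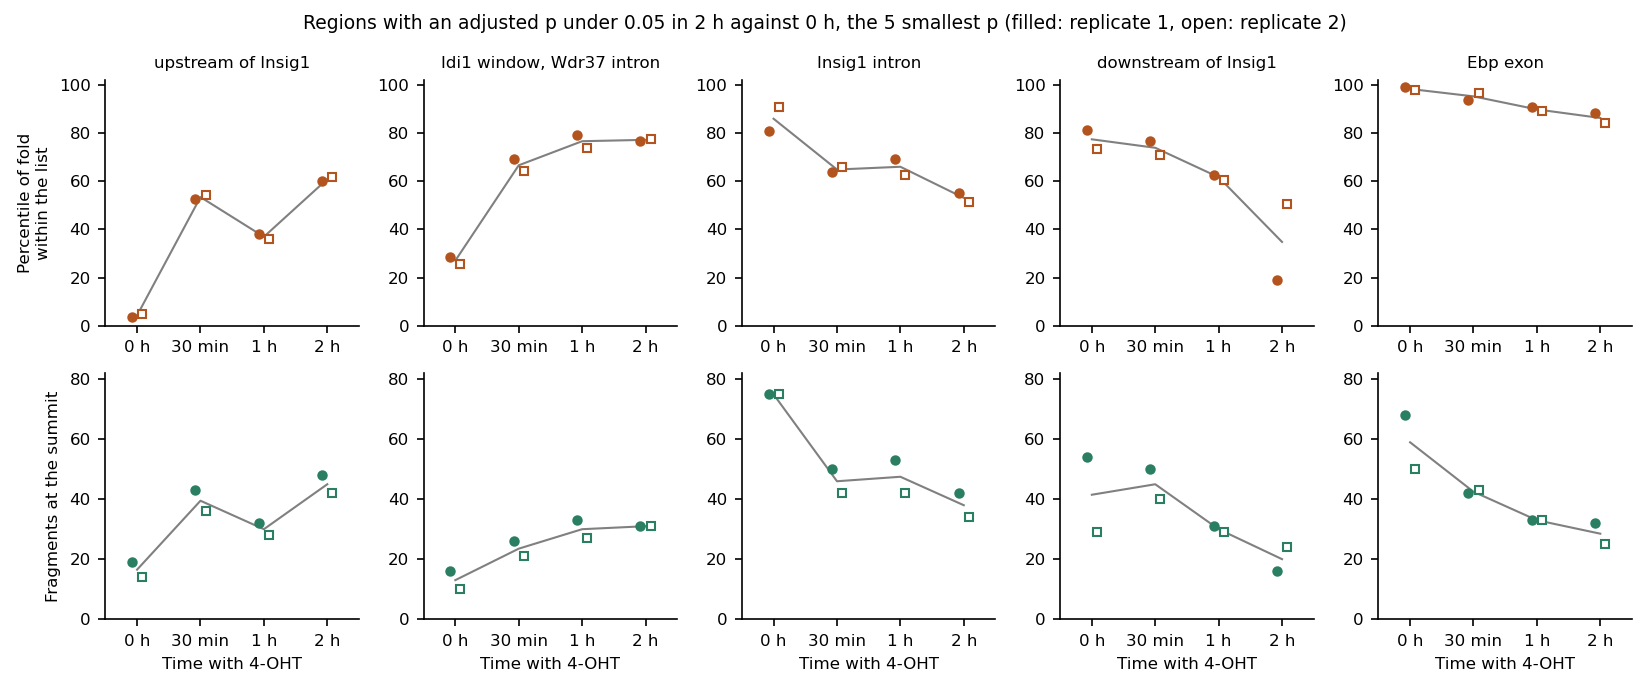
The 5 member regions with the smallest adjusted p at 2 h, with the percentile within the list above (0 to 100) and the fragments at the summit below, by time with 4-OHT; filled circles are replicate 1, open squares replicate 2 and the line the mean. The region upstream of Insig1 and the one in Wdr37 rise from 4.26 to 60.8 and from 27.0 to 77.2 in mean percentile, and the other 3 (Insig1 intron, downstream of Insig1, Ebp) are lower at 2 h and did not pass the threshold of 0.01.

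Insig1 had the widest range of differences among the 7 genes, but also the most tested regions, and a range tends to widen with their number. Its 11 tested regions ran from a difference of -42.6 to 56.6 percentile points between 2 h and 0 h, with 5 higher and 6 lower and a median of -4.50. The region with the lowest difference lay between genes, 13491 bp past the start. It had percentiles of 81.4 and 73.4 (0 h), 76.8 and 70.9 (30 min), 62.6 and 60.6 (1 h), and 19.0 and 50.6 (2 h) (adjusted p = 0.0235). Both 2 h libraries were below all others, but they differed between themselves by more than the 0 h libraries did. A region 14322 bp upstream, in Gm26608, had 85.3 and 95.9 (0 h), 84.1 and 83.5 (30 min), 76.5 and 32.5 (1 h), and 31.8 and 68.4 (2 h). Its fragments were 32 and 34 (0 h) and 7 and 13 (2 h), and with such a spread its adjusted p was 0.0511. In the other direction, a region 11175 bp past the start had 74.3 and 84.0 (0 h) and 89.4 and 93.8 (2 h) (adjusted p = 0.11). When fragments were set over the background of the library instead of the local background, an alternative added once the data had been seen, 7 of 33 member regions passed at 2 h. The 2 called before stayed higher, and 5 were lower, 4 of them at Insig1 (14322 bp and 7288 bp upstream, the intronic region and the one 13491 bp past the start) and 1 at Ebp; of all regions 9.36% were then called lower and 5.41% higher.

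Of the other genes, Srebf2 had 6 tested regions higher and 2 lower at 2 h, with a median difference of 9.53 points. The region with the largest difference, in an intron 41746 bp past the start, had 21.2 and 2.45 (0 h), 10.6 and 34.2 (30 min), 67.0 and 18.8 (1 h), and 59.7 and 46.3 (2 h). It rested on 3 to 14 fragments, and its adjusted p was 0.0687. Near the end of the Srebf2 window, the promoter of Tnfrsf13c, the gene of the B-cell survival receptor BAFF-R, had 92.0 and 79.2 (0 h) and 93.0 and 95.8 (2 h) (adjusted p = 0.19). In the Hmgcs1 window a region in an intron of Nim1k had 41.4 and 38.8 (0 h), 38.1 and 39.1 (30 min), 56.5 and 43.7 (1 h), and 68.6 and 66.7 (2 h). Both 2 h libraries lay above all others, and the adjusted p was 0.0390. In the Fdft1 window a region 2430 bp from a start of Neil2 had 53.1 and 58.2 (0 h) and 69.3 and 75.0 (2 h) (adjusted p = 0.13). The only tested region at Sqle apart from its promoter, nearer to Zfp572, had 31.2 and 33.1 (0 h), 21.8 and 55.7 (30 min), 75.8 and 59.6 (1 h), and 10.6 and 63.7 (2 h). Both 1 h libraries lay above both untreated ones (adjusted p = 0.22), and the 2 h libraries lay on either side of them (adjusted p = 0.99). The Ebp window also took in the start of Tbc1d25, whose 2 tested regions had differences of 3.03 and -9.21 points at 2 h (adjusted p = 0.86 and 0.32).

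The changes of the 33 regions were set beside those of all tested regions. Their median absolute difference between 2 h and 0 h was 8.77 percentile points, against 11.6 for all 47875. With a start site within 1 kb it was 7.04 for 15 member regions and 6.8 for all 13878. Elsewhere it was 13.2 for 18 member regions and 13.9 for all 33997. Within each class the members thus lay closer to all regions. The median signed difference was 3.03 points for the members and 3.66 for all tested regions. On the score scale the median shift of all tested regions at 2 h was 0.17, and 0.06 when ranks were taken among the regions in all lists. The scores and calls by rank were not corrected for this shift. The gap between the 2 replicates had a median of 3.66 points at 0 h and 5.49 at 2 h among the members. Among all tested regions it was 6.71 and 5.88. Of the 15 tested member regions with a start site within 1 kb, 10 were lower at 2 h (median -2.20 points, against 0.629 for all such regions), and of the 18 others 13 were higher (median 6.26 points, against 5.87).

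**Figure D4:**
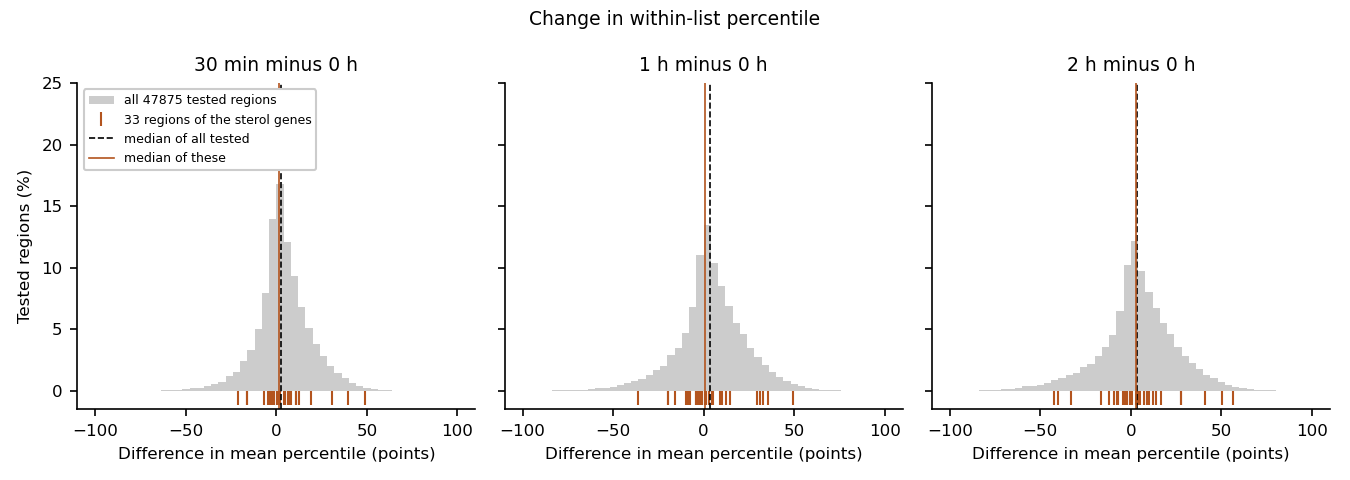
Difference in mean percentile from 0 h at 30 min, 1 h and 2 h, as the percentage of all 47875 tested regions in each bin of the grey histogram, with orange ticks for the 33 regions of the sterol genes. Dashed black and solid orange lines mark the medians, 3.66 and 3.03 points at 2 h; most ticks fall in the body of the histogram and a few at Insig1, Idi1 and Srebf2 lie in its tails.

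The rest of the pathway was taken as a list of 23 genes with 273 regions, of which 94 were tested. All 23 had a start-site region in all 8 lists, and between 0 h and 2 h it was higher in 15 and lower in 8, with a median difference of 1.29 points. Of all 13878 tested promoter regions, 7459 were higher and 6419 lower, with a median of 0.629 points. These counts carry no test. Limma called 0 of 94 regions at 30 min, 1 higher and 2 lower at 1 h, and 1 higher and 3 lower at 2 h, against the same shares of all regions as above. Among the mevalonate genes, 1 of 24 tested regions was called higher and 0 lower at 2 h; among the later sterol enzymes, 0 of 36; among the genes that control SREBP, 2 of 17 lower; and among targets of the sterol-sensing receptor LXR, 1 of 17 lower.

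The largest of these changes was at Srebf1, the gene of SREBP1, which drives fatty acid genes. A region 69 bp from one of its starts (chr11:60220568-60220770) had percentiles of 63.0 and 59.1 (0 h), 26.9 and 36.2 (30 min), 15.8 and 15.1 (1 h), and 3.71 and 5.76 (2 h). Its mean was lower at each later time, with 31 and 20 fragments at 0 h and 14 and 13 (2 h), and passed at 1 h (adjusted p = 0.00873), at 2 h (0.00237) and in the F test (0.00941). A coding exon of Rai1 in the Srebf1 window (chr11:60189573-60190098) went from 92.5 and 94.2 (0 h) to 51.9 and 52.2 (1 h) and 54.8 and 65.7 (2 h) (adjusted p = 0.00573). A region 19688 bp from the start of Abca1, the cholesterol exporter (chr4:53179402-53179906), went from 96.7 and 99.4 (0 h) to 77.9 and 83.6 (30 min), 69.3 and 80.4 (1 h), and 63.5 and 61.1 (2 h) (adjusted p = 0.00382). In the window of Mvk, the mevalonate kinase gene, a region in an intron of its neighbour Mmab (chr5:114443697-114443843) went the other way, from 15.6 and 26.7 (0 h) to 67.3 and 62.6 (30 min), 79.2 and 65.9 (1 h), and 78.8 and 74.4 (2 h) (adjusted p = 0.00464). The 2 h count of 4 became 2 without the first 0 h or the second 30 min library and 0 without the second 0 h or either 2 h library, and the 1 h count of 3 became 0 without any 1 of the 8 libraries.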

How the data were processed

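ATAC-seq peak lists of 8 libraries were used as deposited. The authors aligned the reads with bwa 0.7.17 in the nf-core workflow, kept fragments under 120 bp and called peaks with MACS2 2.1.2 on each library alone, with no control. The methods text names a human genome, but on all 21 chromosomes every peak fits inside mouse GRCm38, which the labels name. For each peak the deposited lists give the summit, its fold over the local background as a ratio, and its −log10 values of p and of q (p-value and q-value). The lowest −log10 q was 1.30. Values are not scaled between libraries. The study's exclusion list was not used here, and no count model was fitted.

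The fold and −log10 p together fix the fragments at a summit and its local background, and a whole number of fragments matched 100% of peaks in each list (within 0.002 of the −log10 p). Peaks overlapping by 1 bp were merged. Regions in all 8 lists were ranked by the fold of their highest peak among all peaks of a list, converted to normal scores, and fitted in limma (lmFit, eBayes; 4 groups, 4 residual and 5.07 prior degrees of freedom), with Benjamini-Hochberg adjustment. The fit and the fragment recovery were checked on simulated data. Named regions are, for each gene, the start-site region with the highest rank at 0 h, those called, those lost or gained at 2 h and the one with the largest difference at 2 h; for the 23 other genes, those called. Further regions in the text were named after their values were seen. The members and lists were chosen with earlier results of these data known. Sequences are from RefSeq; Sqle and Fdft1 have no promoter printed. Results for some single genes of the lists are not reported here.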

Additional observations from a re-analysis of the deposited data

How the results depend on the processing

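Counts are of member regions called at 30 min, 1 h, 2 h and in the F test (0, 2, 2 and 1), then of the 23 other genes (0, 3, 4 and 1). In this section a count without the share of all regions beside it is not read as a result about the genes. Whether same-numbered libraries were paired is not known. Their deviations correlated at 0.0202 to 0.0371, but with a median of 11 to 14 fragments at a summit such values cannot exclude pairing. Replicate 1 had the longer list at each time point. With the replicate number as a block the counts were 0, 0, 2 and 0, then 0, 0, 5 and 0. Leaving out 1 library gave 0, 0, 0 to 2 and 0, then 0, 0, 0 to 4 and 0. Ranking by −log10 p and summit windows of 100 bp on either side left these counts within 1.5 times. Ranking among the regions in all lists gave 1 member at 1 h and 4 at 2 h, and 5, 7 and 3 for the others from 1 h on. Fragments over background gave 1 member at 1 h and 0 in the F test (others 1 at 1 h, 0 in the F test), and centred 1 and 0 (others 0 in the F test). Fragments over the library background, added after seeing the data, gave 1 at 30 min, 7 at 2 h and 2 in the F test (others 6, 11 and 5 from 1 h on). Centred fragments gave 3 at 2 h, with the Insig1 intronic region lower (adjusted p = 0.00622). Lists of equal length gave 1 at 1 h and 0 in the F test (others 1 and 0). At 2 h they gave 1 lower (the Insig1 intronic region, adjusted p = 0.00967, limma) and 1 higher (the Wdr37 region) of 28. The region upstream of Insig1 then had no peak in some 0 h list and could not be tested. With −log10 q of at least 5, neither it nor the Wdr37 region was among the 25 member regions tested. That setting gave 0 at 1 h, 0 at 2 h and 0 in the F test (others 1 at 30 min). A mean trend and robust prior gave 1, 4 and 2 (others 5, 8 and 4). An adjusted p under 0.05 gave 2 at 30 min, 6 at 2 h and 3 in the F test (others 1, 12, 17 and 7). With 5 kb windows 1 was called at 1 h and 1 at 2 h, over 201 peaks in place of 457. Regions in at least 2 lists, absent ones at the lowest rank, gave 6, 8, 8 and 6 (others 24, 27, 30 and 31); absent libraries then share 1 value with no spread, which lowers p by construction.

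Of all 2504 calls at 2 h, 52.1% were lower; this was 67.4% with ranks among regions in all lists, 42.9% with fragments over background, 59.6% centred and 63.4% over the library background. At 1 h it was 50.9%, and 69.6%, 45.8%, 58.4% and 65.6%.

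Losses (2, 1 and 3 (30 min), 1 h and 2 h) ran to 2 to 6, 1 to 5 and 4 to 7 with 1 library left out, and gains (7, 10 and 14) to 7 to 16, 10 to 19 and 14 to 25. With −log10 q of at least 5, losses were 1 at 30 min and 3 at 1 h and gains 8 at 2 h; with equal lists, losses were 5 at 1 h and gains 6 at 1 h and 7 at 2 h; with summit windows, losses were 2 at 1 h; within 5 kb, losses were 1 at 30 min and gains 3, 5 and 3.

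The sign of small changes, none past the test, turned in few cases. At 1 h these were the Hmgcs1 promoter over the library background (-0.10), the Nim1k region with centred fragments (-0.016), the Sqle promoter with fragments (-0.031) and centred (-0.10) and the Neil2 region with centred fragments (-0.019). At 2 h they were the Sqle promoter with fragments (-0.073) and centred (-0.17), the region near Zfp572 ranked among regions in all lists (-0.071) and the Fdft1 promoter with fragments (0.066). With 1 library left out the Sqle promoter ran from -0.069 to 0.42 at 1 h and -0.17 to 0.32 at 2 h, the Zfp572 region from -0.78 to 0.81 at 2 h, the Srebf2 promoter from -0.28 to 0.051 at 1 h and the Fdft1 promoter from -0.31 to 0.16 at 2 h. The cause was not tested. The median of 11 to 14 fragments at a summit limits what a single peak can show.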
